A study of Caenorhabditis elegans with 4 samples.

Results

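The regions described here are the LET-418 peaks on the left arm and centre of Caenorhabditis elegans chromosome V, mapped by chromatin immunoprecipitation and sequencing (ChIP-seq), which recovers DNA crosslinked to a protein. They were chosen by position alone, as the peaks of the series-wide list on V whose midpoint lies below 16.55 Mb in the WormBase assembly WS220. These are 1468 of the 13690 peaks of that list, or 10.7%. The left arm, below 5.897 Mb, holds 527 of them and the centre, over the next 10.653 Mb, holds 941. The worms were wild-type N2 larvae of stage L3, a mixed population of males and hermaphrodites kept at 20 °C, and whole animals were used, so that all tissues contribute. The 4 samples are 2 ChIP replicates, made with a polyclonal LET-418 antibody raised in rabbits, and 2 input DNA samples. Each ChIP replicate has its own peak list, and the series-wide list names its peaks without a replicate. The labels do not say whether the replicates came from separate cultures.

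LET-418 is a worm homologue of Mi-2/CHD4, an ATPase that moves nucleosomes, and it works in the NuRD and MEC complexes, which are known for repressing genes and for keeping germline programmes silent in somatic cells of larvae. Worm chromosomes are divided into arms, where meiotic recombination is frequent and repeats and fast-evolving gene families are common, and a centre, where recombination is rare and conserved genes are more common. Chromosome V carries large families of chemoreceptor genes and also the let-418 gene itself. The comparison asks whether LET-418 sites on V differ between arm and centre in number, spacing, extent, strength and repeatability. Gene models and sequence of WS220 were not used here, so peaks are named by position and not by gene.

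The density of LET-418 peaks did not differ detectably between the left arm of V and its centre. In the series-wide list the left arm had 89.4 peaks per Mb (95% exact Poisson interval 81.9 to 97.3) and the centre 88.3 (82.8 to 94.2). Replicate 1, the much shorter list, had 6.78 peaks per Mb on the left arm (4.85 to 9.24; 40 peaks) and 7.70 in the centre (6.12 to 9.55; 82 peaks). Replicate 2 had 143 peaks per Mb on the left arm (133 to 153; 841 peaks) and 133 in the centre (126 to 140; 1412 peaks). The series-wide ratio of left arm to centre was 1.01 (95% interval 0.908 to 1.13; two-sided exact binomial test of counts against length, p adjusted over 6 tests = 0.83). No difference was therefore detected, and the interval leaves room for a left arm up to 1.13 times as dense or down to 0.908 times. The ratio was 0.881 in replicate 1 (0.588 to 1.30) and 1.08 in replicate 2 (0.987 to 1.17), so the point estimates of the replicates lay on opposite sides of 1 and both intervals held 1. Peaks covered 2.98% of the left arm and 3.01% of the centre in the series-wide list. Tests and intervals here treat peaks as independent, which neighbouring peaks are not, so they cover counting error only, and for clustered peaks the p-values are too small and the intervals too narrow.

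Local counts varied widely within both regions. Over the 11 whole 500-kb bins of the left arm the series-wide count ran from 21 to 68 with a median of 43, and over the 21 whole bins of the centre from 17 to 67, also with a median of 43. The ranges therefore overlapped almost entirely. In replicate 1 the bins held 1 to 7 peaks on the left arm (median 3) and 0 to 7 in the centre (median 4), and in replicate 2 they held 31 to 115 (median 65) and 27 to 103 (median 64). The densest left-arm bins were 1 to 1.5 Mb with 68 series-wide peaks, 3.5 to 4 Mb with 59 and 2 to 2.5 Mb with 55. The sparsest were 3 to 3.5 Mb with 21, 5 to 5.5 Mb with 26 and 1.5 to 2 Mb with 37. In the centre the densest were 14 to 14.5 Mb with 67, 6 to 6.5 Mb with 66 and 10 to 10.5 Mb with 59. The sparsest there were 16 to 16.5 Mb with 17, 7 to 7.5 Mb with 24 and 7.5 to 8 Mb with 35. Replicate 2 gave the bin at 1 to 1.5 Mb 115 peaks and that at 3 to 3.5 Mb 31, so its highest and lowest left-arm bins were the same as in the series-wide list. Over the 32 whole bins of both regions, Spearman's rho of the counts was 0.83 between the series-wide list and replicate 2, 0.31 between the series-wide list and replicate 1, and 0.09 between the 2 replicates. These values describe bins of the same libraries, and the local pattern was not shown to repeat between the replicates. Replicate 1 had 7 peaks in the otherwise sparse bin at 3 to 3.5 Mb, and 5 of these were pieces of a single wide site described below. The variance of the series-wide bin counts was 4.32 times their mean on the left arm and 3.22 times in the centre, where independently placed peaks would give a value near 1. It was 9.36 and 4.95 times in replicate 2, and 1.24 and 1.33 times in the shorter list of replicate 1. Replicate 1 had a mean of only 3.45 and 3.86 peaks per bin. At such low counts the value lies near 1 even for clustered peaks, so replicate 1 was not shown to be less clustered.

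**Figure D1:**
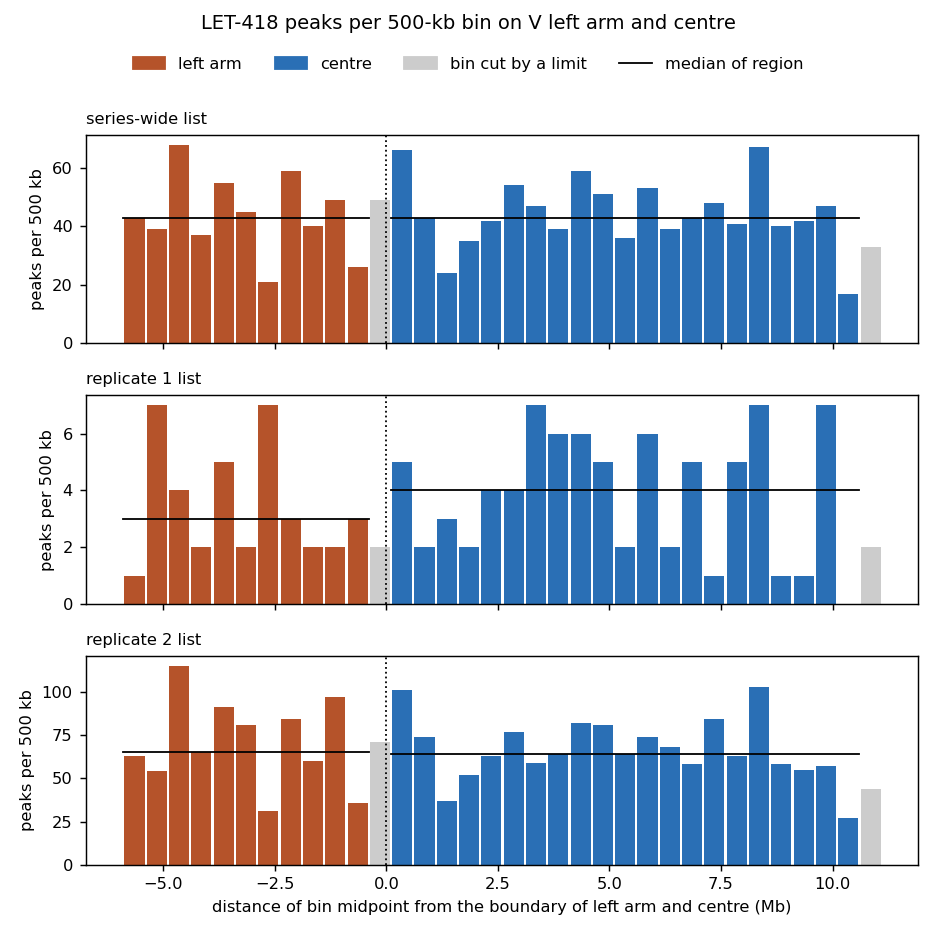
Number of LET-418 peaks per 500-kb bin (y axes, 1 panel per list) against the distance of the bin's midpoint from the boundary of left arm and centre in Mb (x axis, negative on the left arm). Black lines are the medians over whole bins, 43 for both regions in the series-wide list. Grey bars are bins cut by the boundary or by the right limit, and the last of these also counts peaks beyond the right limit.

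Peaks came in tight runs separated by long empty stretches in both regions. The median distance from the edge of one series-wide peak to the next was 2.15 kb on the left arm and 2.11 kb in the centre. Of these distances, 36.6% (95% Wilson interval 32.6 to 40.8) on the left arm and 37.8% (34.8 to 41.0) in the centre were at most 1 kb. When peaks within 1 kb were joined into runs, 53.9% of left-arm peaks and 55.2% of centre peaks shared a run with at least 1 other peak. The 2 regions together had 54.7% (52.1 to 57.2) of their peaks in such runs, against 62.5% (61.6 to 63.3) in the rest of the genome, so runs were no particular feature of them. The largest left-arm run, V:1149229-1159550, held 10 peaks in 10322 bp, and the largest run of the centre, V:10466331-10478423, held 14 peaks in 12093 bp. This run of the centre was also a run of 15 peaks in replicate 2, where the largest run of the centre was V:10712224-10728087 with 19. The next largest were V:1260747-1265949 and V:2614636-2620038 on the left arm with 9 peaks each, and V:9086043-9094388 and V:10712228-10724031 in the centre with 12 and 11. The largest left-arm run of replicate 2, V:1469494-1480729 with 16 peaks, was none of those named for the series-wide list.

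More of the left arm than of the centre lay in stretches of at least 50 kb without a peak. The order depended on the length asked for and, at 20, 63.1 and 100 kb, on the list. Gaps of at least 50 kb made up 42.0% of the left arm (30 gaps) and 35.4% of the centre (49 gaps) in the series-wide list. The shares were 97.9% and 94.5% in replicate 1, and 25.1% and 20.7% in replicate 2, so the left arm was higher in all 3 lists. The lists are not 3 separate pieces of evidence for this order. With 40 and 82 peaks, replicate 1 left nearly all of both regions in such gaps. Most series-wide peaks were also replicate 2 peaks. With gaps of at least 20 kb the series-wide order turned round, to 69.1% of the left arm and 72.6% of the centre. Replicate 2 had the same order at 20 kb (54.7% and 57.5%) and replicate 1 the opposite (98.9% and 98.7%). At 63.1 kb the order in replicate 2 was already turned, with 14.5% of the left arm and 16.2% of the centre. The series-wide shares there were 30.4% and 26.7%. With gaps of at least 100 kb the series-wide share was 16.3% on the left arm (8 gaps) and 12.7% in the centre (12 gaps). At that length replicate 1 had 94.9% on the left arm and 88.5% in the centre, whereas replicate 2 had the opposite order, with 1.87% of the left arm (1 gap) and 6.47% of the centre (6 gaps). These shares rest on few gaps and have no test. On the right arm of V, series-wide gaps of at least 20, 50 and 100 kb made up 54.7%, 33.9% and 19.4% of the length. Long gaps were thus not particular to the left arm and centre. The longest left-arm gaps in the series-wide list were V:3832890-3980377 (147 kb), V:2731001-2877516 (147 kb), V:3054120-3193194 (139 kb), V:1632743-1743328 (111 kb) and V:349354-457666 (108 kb). None of the 5 held a replicate 1 peak, and they held 2, 6, 6, 0 and 4 replicate 2 peaks. Of the 122 replicate 1 peaks of the 2 regions, 121 overlapped a series-wide peak, so such gaps could hardly hold one. The absence of replicate 1 peaks from the gaps named here was thus nearly fixed in advance. The longest gap of the centre was V:7237401-7416245 (179 kb), which held no replicate 1 peak and 2 replicate 2 peaks. The others there were V:10537960-10657809 (120 kb), V:8668031-8782028 (114 kb), V:16395644-16506194 (111 kb) and V:12353909-12463000 (109 kb), with no replicate 1 peak and 9, 1, 1 and 2 replicate 2 peaks. The sparse bins at 3 to 3.5 Mb, 7 to 7.5 Mb and 16 to 16.5 Mb each contain all or most of 1 of these gaps.

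Stretches of at least 50 kb that were empty in all 3 lists numbered 22 on the left arm and 28 in the centre, and made up 24.8% and 19.8% of their length. Replicate 2 alone had 22 and 29 such gaps, making up 25.1% and 20.7%. Most peaks of the other lists lay on replicate 2 peaks, so these stretches are not separate agreement of 3 lists. The longest stretches empty in all lists were V:1632782-1743320 (111 kb) on the left arm and V:7248155-7416214 (168 kb) in the centre. Both were also the longest replicate 2 gaps. The boundary of arm and centre itself fell in a 99.0-kb gap of the series-wide list, V:5851935-5950962. It held 1 replicate 2 peak and no replicate 1 peak, the latter again nearly fixed in advance. The last left-arm peak before it, V:5851664-5851934, had a series-wide score of 4.83 and the first centre peak after it, V:5950963-5951164, a score of 4. At the right limit, the last peak inside was V:16547232-16547606 with a score of 9.54 and the first outside was V:16552662-16552807 with a score of 2.28. None of these 4 peaks was found in replicate 1. In replicate 1 the gaps were far longer. The longest of the left arm was V:203852-724198 (520 kb), in which the series-wide list had 21 peaks and replicate 2 had 32. The longest of the centre was V:15590468-16537873 (947 kb), with 35 and 46, and the next, V:6515313-7432536 (917 kb), had 55 and 99.

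**Figure D2:**
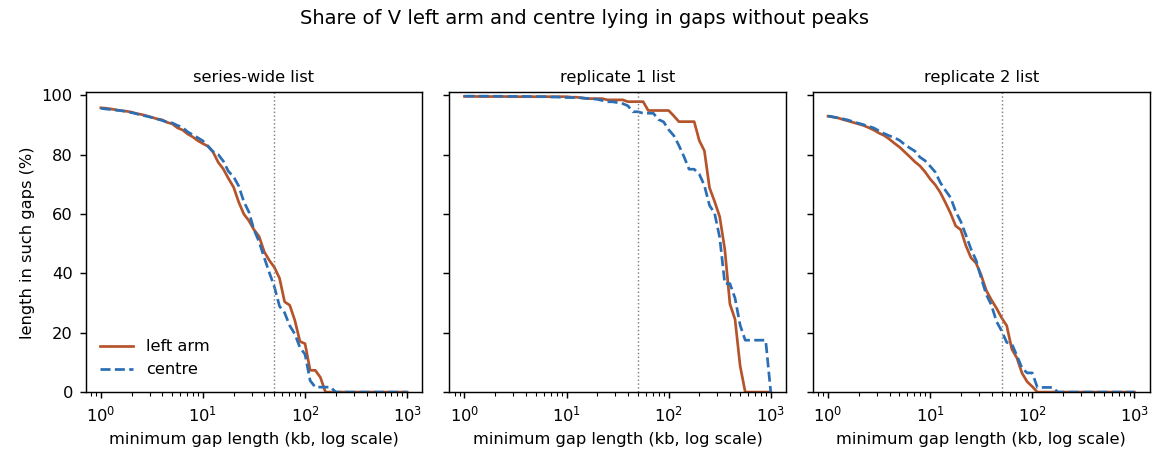
Percent of the left arm (solid line) and of the centre (dashed line) that lies in gaps without peaks of at least the length on the x axis (kb, log scale), in each of the 3 lists. The dotted line marks 50 kb, where the left arm was above the centre in all 3 lists, with nearly all of both regions in such gaps in replicate 1. In the series-wide and replicate 2 lists the order was the opposite at 20 kb.

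Peaks were narrow in both regions, with a few broad sites. The median width of series-wide peaks was 235 bp on the left arm (quartiles 192 and 341) and 250 bp in the centre (189 and 372). In replicate 2 it was 243 bp on the left arm (189 and 348) and 257 bp in the centre (193 and 391). The order was the opposite in replicate 1, with 239 bp on the left arm (193 and 376; 40 peaks) and 189 bp in the centre (167 and 278; 82 peaks). The direction of the difference in width therefore was not shared by the replicates, and the quartile ranges overlapped in every list. Over 1 kb were 12 left-arm peaks (2.28%, Wilson 1.31 to 3.94) and 27 centre peaks (2.87%, 1.98 to 4.14), where the share over the whole list was 2.87%. In replicate 2 they were 19 (2.26%) and 41 (2.90%), where its whole list gave 2.89%. In replicate 1 the left arm had 4 such peaks of 40 and the centre had 0 of 82, which allows a share of up to 3.66%, and its whole list gave 1.27%. Of those 4, 3 were pieces of 1 site.

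That site, V:3434576-3441142, was the widest of the left arm at 6567 bp in the series-wide list. Replicate 2 had a single peak of 6632 bp over it with a score of 57.57, at the 95.7th percentile of its list. Replicate 1 had 5 peaks there, the widest of 2786 bp. Its series-wide score was only 6.46, at the 41.3rd percentile. The next widest left-arm peaks were V:723843-727887 (4045 bp), which met 6 replicate 1 peaks and 1 replicate 2 peak, and V:3652888-3655645 (2758 bp), which was a single peak of 2500 bp in replicate 1 and of 2855 bp in replicate 2. The neighbouring V:1150187-1152114 (1928 bp) and V:1153074-1154939 (1866 bp), both within the run of 10 peaks, were in replicate 2 but not in replicate 1. In the centre the widest peak, V:9338532-9344353 (5822 bp), was matched by 1 replicate 2 peak of 5935 bp and by 6 replicate 1 peaks. The next were V:6222332-6225636 (3305 bp), V:10721606-10724031 (2426 bp), V:15567674-15570014 (2341 bp) and V:7432374-7434536 (2163 bp). All of these were in replicate 2, and V:10721606-10724031 alone among the 5 was not in replicate 1. All 39 series-wide peaks over 1 kb in the 2 regions were in replicate 2, as were 353 of 354 in the rest of the genome. Of these wide peaks, 6 of 12 on the left arm and 11 of 27 in the centre were in replicate 1. In the rest of the genome 184 of 354 such peaks, or 52.0% (46.8 to 57.1), were in replicate 1, a share within the Wilson intervals of the left arm (25.4 to 74.6) and of the centre (24.5 to 59.3).

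Median scores on the left arm were slightly lower than in the centre in every list, and the distributions overlapped broadly. The score is the authors' own value per peak, on a scale that is not given in the sources used here, and it was compared only within a list. The series-wide median was 6.58 on the left arm (quartiles 4.28 and 10.8) and 6.86 in the centre (4.42 and 11.5). It was 3.75 (2.65 and 5.46) and 4.09 (3.01 and 6.16) in replicate 1, and 7.92 (4.67 and 14.7) and 9.15 (5.16 and 19.5) in replicate 2. As percentiles of the whole list, the medians were 42.6 on the left arm and 44.8 in the centre for the series-wide list, 27.0 and 31.8 for replicate 1, and 42.7 and 49.1 for replicate 2. The highest decile of series-wide scores held 4.36% of left-arm peaks (23; Wilson 2.93 to 6.46) and 6.48% of centre peaks (61; 5.08 to 8.24), against 10% of the list as a whole by construction. In replicate 2 the shares were 7.13% (60; 5.58 to 9.08) on the left arm and 10.6% (150; 9.12 to 12.3) in the centre. In replicate 1 the order was the opposite on very few peaks, with 5% on the left arm (2 of 40; 1.38 to 16.5) and 3.66% in the centre (3 of 82; 1.25 to 10.2). The wider peaks tended to have the higher scores, with a Spearman's rho between score and width of 0.38 over left-arm peaks and 0.39 over centre peaks. It was 0.47 over the peaks of the rest of the genome. Peaks share a library, so these are descriptions, and the differences in score and width between the regions have no test.

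**Figure D3:**
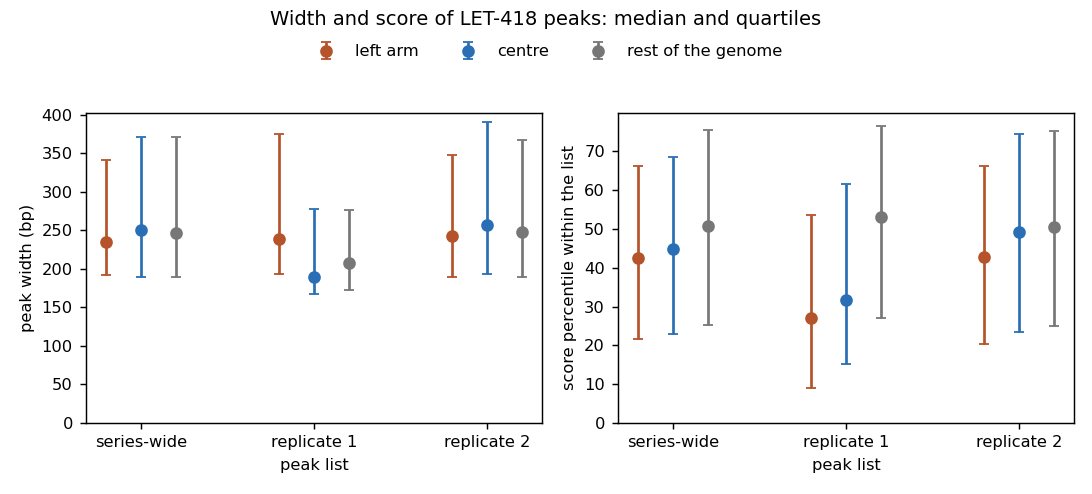
Median (point) and quartiles (bars) of peak width in bp (left) and of the score percentile within each list (right) for the left arm, the centre and the rest of the genome, in each of the 3 lists. Left-arm peaks were narrower than centre peaks in the series-wide and replicate 2 lists and wider in replicate 1, and their median score percentile was the lowest of the 3 regions in every list.

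Most of the strongest sites of both regions were under 1 kb and stood in all 3 lists, but broad peaks were not rare among them. Of the 10 highest-scoring peaks, 3 on the left arm and 1 in the centre exceeded 1 kb. Among all series-wide peaks the shares were 2.28% on the left arm and 2.87% in the centre. Score rose with width in the rest of the genome too, and the share over 1 kb among its strongest peaks was not counted. The highest-scoring left-arm peak, V:2008455-2008747 (293 bp), had a series-wide score of 50.27, with 15.74 in replicate 1 and 120.33 in replicate 2. The second, V:4063625-4063905 (281 bp), had 45.85, with 10.81 and 106.4. The highest of the centre, V:9549425-9549766 (342 bp), had 49.67, with 17.95 in replicate 1 and 139.67 in replicate 2. It was at the 99.2nd percentile or above in all 3 lists, and the first left-arm peak was at the 97.2nd or above. Of the 10 highest-scoring peaks, 9 on the left arm and 8 in the centre were in replicate 1, and all 20 were in replicate 2. In the rest of the genome 51.8% of the peaks in the highest score quintile, a wider set, were in replicate 1 and 99.6% in replicate 2. Presence in replicate 2 was therefore no particular feature of these sites. The remaining left-arm ones were V:3652888-3655645 (score 36.92), V:2066792-2067405 (36.49), V:1892998-1893237 (33.88), V:1150187-1152114 (33.62), V:723843-727887 (32.93), V:3656788-3657327 (31.48), V:2617431-2617867 (26.86) and V:3454626-3454987 (25.64).

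In the centre the list went on with V:10136662-10137148 (40.78) and V:10138598-10139110 (40.08), a neighbouring pair. Both were missing from replicate 1, although replicate 2 placed them at the 99.7th and 99.5th percentiles. The only left-arm peak of the 10 without a replicate 1 counterpart, V:1150187-1152114, was likewise at the 99.8th percentile of replicate 2. After the pair came V:12967843-12968315 (36.93), V:15184117-15184360 (35.46), V:9338532-9344353 (34.24), V:15590262-15590516 (33.83), V:10341751-10342323 (33.43), V:10897236-10897495 (32.92) and V:14468603-14468914 (32.46). The next highest peaks of the centre in replicate 1 itself were V:12065960-12066233 (replicate 1 score 12.01), V:14177646-14178113 (11.31), V:12967872-12968249 (10.14) and V:12191027-12191199 (10.01), of which V:12967872-12968249 alone lay on 1 of the 10 highest series-wide peaks. On the left arm its 5 highest were all among the 10 highest series-wide peaks, and scored 15.74, 10.81, 9.89, 9.21 and 8.53.

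**Figure D4:**
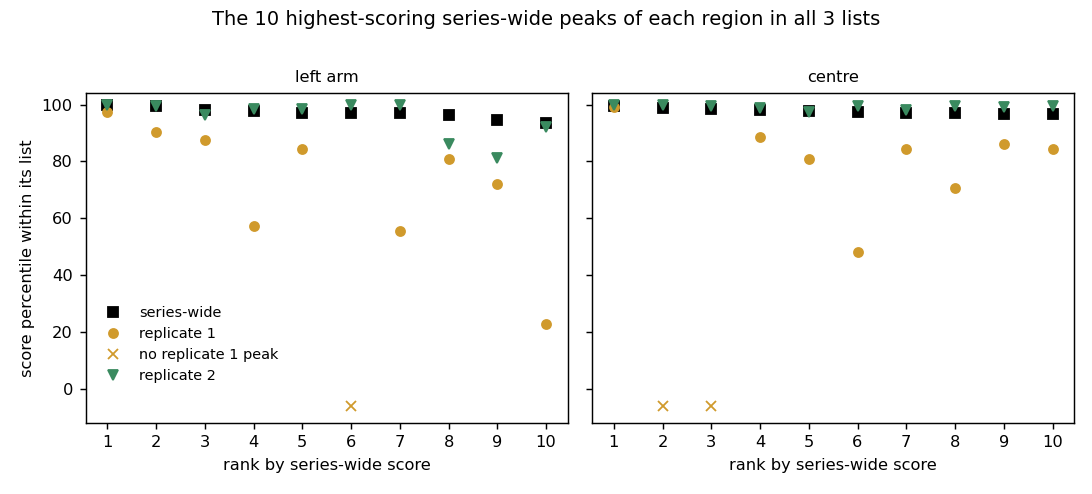
Score percentile within its own list (y axis) of the 10 highest-scoring series-wide peaks of the left arm (left) and of the centre (right), by rank (x axis), with the overlapping peak of replicate 1 and of replicate 2. Crosses below 0 mark peaks with no replicate 1 counterpart, 1 on the left arm and 2 in the centre; all 20 had one in replicate 2.

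Few peaks of either region were found in replicate 1. Of the left-arm peaks 29 of 527 overlapped a replicate 1 peak by at least 1 bp, or 5.50% (Wilson 3.86 to 7.79), and of the centre peaks 73 of 941, or 7.76% (6.22 to 9.64). The share over the whole series-wide list was 12.1%. The odds ratio of left arm to centre was 0.69 (95% interval 0.428 to 1.10; two-sided Fisher's exact p adjusted over 6 tests = 0.13), so a difference was not detected. The peaks that were found had a median score of 18.1 on the left arm and 20.1 in the centre, against 6.26 and 6.46 for those that were not. Their median width was 570 bp on the left arm and 342 bp in the centre, against 229 and 243 bp for the others. Scores and widths of these peaks moved with recovery, and their part in it was not tested beyond the score-matched value given below.

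Recovery in replicate 1 was concentrated in the highest scores of both regions. In the lowest score quintile of the series-wide list 0 of 116 left-arm peaks and 0 of 206 centre peaks were found, which allows shares of up to 2.59% and 1.46%. In the highest quintile, with scores of 15.31 or more, 25% of left-arm peaks (18 of 72; Wilson 16.4 to 36.1) and 37.3% of centre peaks (53 of 142; 29.8 to 45.5) were found, against 51.8% (49.9 to 53.8) in the rest of the genome. The intervals of left arm and centre overlapped. Pooled over 10 score strata, the Mantel-Haenszel odds ratio of V left arm and centre to the rest of the genome was 0.70 (0.541 to 0.901, exact stratified test, adjusted p = 0.0065). The shares did not differ in the same direction at every score. In the highest quintile 33.2% of peaks of V left arm and centre were found, and in the next 7.09%, against 8.06% in the rest. In the middle quintile the order was the opposite, at 2.84% (9 of 317) against 1.48%. So it was in the next-to-lowest, at 0.86% (3 of 347) against 0.42%. The left-arm to centre odds ratio at matched score was 0.77 (0.465 to 1.29; exact stratified test, adjusted p = 0.45). The series-wide score may itself rest on the replicates, so matching on it, here and below, may match on recovery itself.

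**Figure D5:**
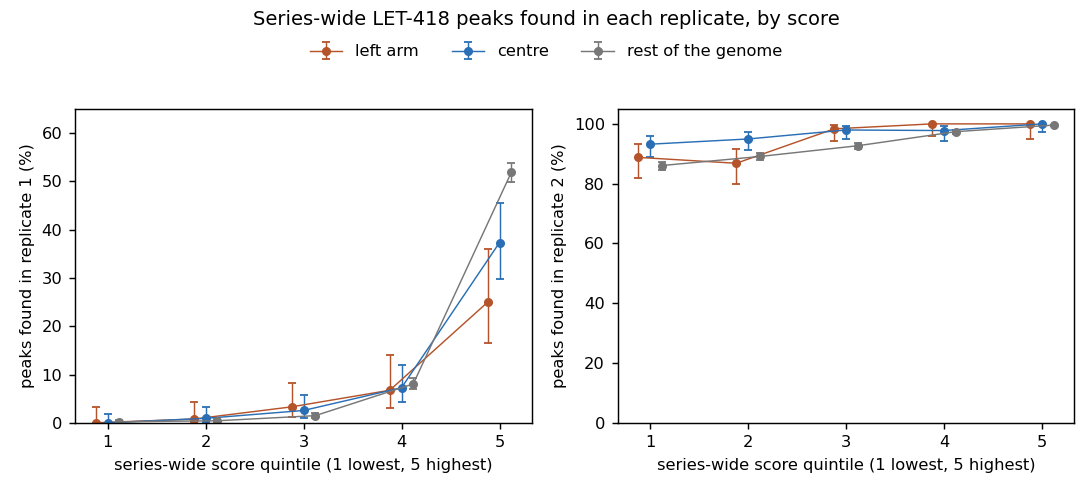
Percent of series-wide peaks found in replicate 1 (left, y axis to 65%) and in replicate 2 (right, y axis to 100%) by quintile of the series-wide score (x axis) for the left arm, the centre and the rest of the genome, with 95% Wilson intervals. In the highest quintile the shares found in replicate 1 were 25%, 37.3% and 51.8%.

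Nearly all peaks of both regions were found in replicate 2, slightly fewer on the left arm. The counts were 495 of 527 on the left arm, or 93.9% (Wilson 91.6 to 95.7), and 908 of 941 in the centre, or 96.5% (95.1 to 97.5), where the whole list gave 93.3%. The odds ratio of left arm to centre was 0.56 (0.331 to 0.957; Fisher's exact p adjusted over 6 tests = 0.037). At matched score the odds ratio was nearly the same, at the edge of the threshold (Mantel-Haenszel 0.57, 0.339 to 0.942; exact stratified test, adjusted p = 0.049). With the boundary 500 kb further right it was 0.69 and no longer past the threshold (0.403 to 1.17; Fisher's exact test, adjusted p = 0.19). Among peaks at or above the median series-wide score the direction was the opposite, with a wide interval (3.68, 0.468 to 167; Fisher's exact test, adjusted p = 0.33). The peaks missed in replicate 2 were mostly weak, with a median score of 4.41 on the left arm and 4.28 in the centre. In the next-to-lowest score quintile 86.8% of left-arm peaks (79.9 to 91.6) and 95.0% of centre peaks (91.2 to 97.2) were found, and in the highest quintile all 72 and all 142 were.

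In the other direction, every replicate 1 peak of the 2 regions was also a replicate 2 peak. All 40 left-arm and all 82 centre peaks of replicate 1 overlapped replicate 2, as did 99% of the whole replicate 1 list. The series-wide list held all 40 on the left arm and 81 of 82 in the centre, with 99.8% for the whole list. The 40 left-arm peaks of replicate 1 fell on 29 series-wide peaks, so some series-wide peaks held several of them. Replicate 2 peaks were found in replicate 1 in 29 of 841 cases on the left arm, or 3.45% (2.41 to 4.91), and in 73 of 1412 in the centre, or 5.17% (4.13 to 6.45), against 8.65% over the whole replicate 2 list.

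The series-wide list held peaks of V left arm and centre that neither replicate list had. They were 32 on the left arm, or 6.07% (Wilson 4.33 to 8.45), and 33 in the centre, or 3.51% (2.51 to 4.88), where the whole list gave 6.57%. These are the peaks missed in replicate 2 described above, and their median widths were 173 bp on the left arm and 165 bp in the centre. Replicate 2 in turn had 364 left-arm and 537 centre peaks without a series-wide counterpart. The series-wide list thus held 56.7% of its left-arm peaks (53.3 to 60.0) and 62.0% of its centre peaks (59.4 to 64.5), against 63.3% of the whole replicate 2 list. The peaks left out had a median replicate 2 score of 4.98 on the left arm and 5.02 in the centre, and those held 13.2 and 15.8.

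Set against the rest of the genome, V left arm and centre were poor in LET-418 peaks in every list. There were 88.7 series-wide peaks per Mb (84.2 to 93.4) there and 146 (143 to 149) in the rest, a ratio of 0.61 (0.575 to 0.641; exact binomial p adjusted over 6 tests = 1.16e-81). Replicate 1 had 7.37 (6.12 to 8.80) and 21.1 (20.1 to 22.1), a ratio of 0.35. Replicate 2 had 136 (131 to 142) and 207 (204 to 210), a ratio of 0.66. V left arm and centre also had fewer series-wide peaks than the right arm of V, with 88.7 per Mb against 163 (151 to 176), a ratio of 0.54 (0.497 to 0.595). The size of that ratio depended on the list, at 0.141 (0.112 to 0.176) in replicate 1 and 0.706 (0.652 to 0.765) in replicate 2. Against X, another chromosome with few peaks, the series-wide density was 88.7 on V left arm and centre and 107 per Mb (102 to 112) on X, a ratio of 0.83 (0.774 to 0.888). In replicate 1 it was 7.37 on V left arm and centre and 4.85 (3.88 to 5.99) on X, a ratio of 1.52 (1.14 to 2.03), so their order depended on the list. Median widths differed little, at 246 bp on V left arm and centre and 247 bp in the rest.

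Recovery of V left arm and centre differed from that of the rest of the genome in opposite directions in the 2 replicates, which was not particular to them. In replicate 1, 102 of 1468 peaks were found, or 6.95% (5.76 to 8.36), against 12.8% (12.2 to 13.4) in the rest, an odds ratio of 0.51 (0.411 to 0.630; Fisher's exact p adjusted over 6 tests = 2.34e-11). In replicate 2, 95.6% (94.4 to 96.5) were found on V left arm and centre, against 93.1% (92.6 to 93.5) in the rest, an odds ratio of 1.61 (1.24 to 2.12; Fisher's exact test, adjusted p = 0.00032). The median series-wide score percentile was 44.2 on V left arm and centre and 50.9 in the rest, so lower scores moved with the lower recovery in replicate 1. Matching on score brought the pooled odds ratio nearer to 1, to 0.70 against 0.51 unmatched. It remained past the threshold as given above, although the shares by score quintile did not all go this way. Over the peaks found, the series-wide score followed the replicate score, with a Spearman's rho of 0.73 in replicate 1 (102 peaks) and 0.77 in replicate 2 (1403 peaks). How the series-wide list was made from the replicates is not given, so score and recovery may not be separate measures. The part of score in recovery therefore cannot be told from these values. X had the same pattern: in replicate 1, 6.95% of peaks were found on V left arm and centre and 3.90% (3.12 to 4.87) on X, an odds ratio of 1.84 (1.34 to 2.54), and in replicate 2, 95.6% and 96.8% (95.9 to 97.5), an odds ratio of 0.72 (0.494 to 1.04). The right arm of V had the opposite pattern, with 26.9% (23.8 to 30.3) found in replicate 1 and 87.1% (84.5 to 89.4) in replicate 2, giving odds ratios of V left arm and centre to right arm of 0.20 (0.155 to 0.265) and 3.19 (2.26 to 4.52). No peak of the 1468 was found in replicate 1 but not in replicate 2, which allows a share of up to 0.204%. In the rest of the genome 15 of 12222 were, or 0.123%, which lies below that limit. No difference was therefore shown, and X also had 0 of 1896.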

How the data were processed

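LET-418 ChIP-seq peaks of L3 larvae were taken from 3 deposited peak lists, 1 per ChIP replicate and 1 series-wide. Peaks were called with MACS on WormBase WS220, per the file headers and source column, and BWA and ce10 are named in the submitters' processing notes. Not given in the sources used here are versions, thresholds, the use of input and the making of the series-wide list. The deposited score of each peak, the authors' own, has no stated scale. Other deposited values used were the start and end positions. No list gives read counts, so the depth is unknown.

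No peak was filtered. Overlap meant at least 1 bp. Densities carry exact Poisson intervals and shares Wilson intervals (95%), and 3 counts set the limit for a count of 0. Densities were compared by exact binomial tests and recovery by Fisher's exact tests, two-sided, Benjamini-Hochberg adjusted over 6 tests, with 0.05 as the threshold. Mantel-Haenszel odds ratios over 10 score strata were tested by the exact conditional test of a common odds ratio. Functions were tested on simulated data. Chromosome ends are the last peak ends in any list. Regions named were, in each region, the 10 highest-scoring and 5 widest series-wide peaks, the 5 longest gaps, the 5 highest replicate 1 peaks, the 3 densest and 3 sparsest bins and the peaks beside the limits. The largest runs, the gaps empty in all lists and the longest replicate 1 gaps were picked with their values in view. The members, boundaries and lists were chosen with earlier results of these data known. Software was SciPy 1.17.1, statsmodels 0.14.6, pandas 2.3.3, NumPy 2.4.6 and Matplotlib 3.10.9 under Python 3.11.15.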

Additional observations from a re-analysis of the deposited data

How the results depend on the processing

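No paired analysis was possible because no peak list of an input sample was analysed here, which leaves nothing to pair with the same-numbered ChIP replicate. The density ratio of left arm to centre, 1.01, ran from 0.881 without replicate 2 (the replicate 1 list alone) to 1.08 without replicate 1, and was 0.94 for scores at or above the series-wide median; none passed the threshold. The odds ratio of recovery in replicate 2, 0.56, was 3.68 (0.468 to 167) for scores at or above the median, where few peaks were missed, and 0.69 with the boundary 500 kb to the right, not past the threshold. At matched score it was 0.57, just past the threshold by the exact test (adjusted p = 0.049) and not by a chi-square p chosen after the data were seen (0.059). The median width difference of -15 bp ran from -14 bp in replicate 2 alone to 49.5 bp in replicate 1 alone. The score percentile difference of -2.16 ran from -6.39 to -4.80 with either replicate alone. The difference in length in gaps of 50 kb or more, 6.61 percentage points, ran from 3.41 to 4.40 with either replicate alone, and was -3.53 for gaps of 20 kb, 3.58 for 100 kb, 3.44 for scores at or above the median and 8.82 with the boundary 500 kb to the left. The cause of these changes was not tested. The 3 comparisons with the rest of the genome and the odds ratio of recovery in replicate 1 kept their direction and their side of the threshold in all alternatives. Unknown depth limits all counts, since list length can follow depth.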
